A study of Mus musculus with 6 samples.

Results

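The 9 mouse genes examined here are Gdpd3, Klk1b22, Wfdc17, Tlcd4, BC147527, Arhgap29, Lypd6b, Xkrx and Als2cl, whose array signal separated CBS-deficient from wild-type CD4+ T cells by a wide margin. They were chosen by their measured difference between the same groups, under a working description of genes that behave like switches and may mark a difference in genetic background. All probe sets whose annotation names exactly 1 of these genes were taken, which gave 10 probe sets for the 9 genes out of 34760 probe sets on the array. CBS-KO cells came from mice lacking cystathionine beta-synthase, the enzyme that condenses homocysteine with serine and can release hydrogen sulfide. WT cells came from mice with the enzyme. Each group had 3 arrays of CD4+ T cells, described as biological replicates, from mice of 6 weeks of age. The labels give the strain as C57BL/6 for every array. Which allele removes the enzyme, whether the mutant stock was backcrossed or kept with littermates, and how the cells were isolated go unstated. A difference in background that ran along with genotype cannot be told apart from the effect of genotype in this layout.

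Transcripts with all-or-none differences between mice of one named strain are a familiar sight in expression studies of knockout lines. Mutant alleles are often made in cells of another strain and then bred onto C57BL/6, and stretches of the donor genome, copy number variants and inactive alleles can travel with them. None of the 9 genes has a textbook role that defines CD4+ T cells. In bulk RNA, fewer cells of a type and less RNA per cell cannot be told apart.

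The following facts of the arrays touch the 9 genes. Array medians lay between 7.37 and 7.55 as log2(intensity + 16), the scale of all log2 values here, and all differences are CBS-KO minus WT. Pearson's r across probe sets was 0.970 to 0.988 between CBS-KO arrays, 0.989 to 0.994 between WT arrays and 0.949 to 0.978 between the groups. Xist was high on CBS-KO 3 and on all WT arrays, while 3 measured Y-linked genes were high on CBS-KO 1 and 2 alone, so CBS-KO 3 was the only female CBS-KO array and sex was partly confounded with genotype. The Cbs probe set itself read 7.25, 7.63 and 7.35 in CBS-KO cells and 7.37, 7.48 and 7.19 in WT cells, and its place in the gene is not given, so it does not check the labels. All 6 measured CD4 T cell markers, Cd4 and Cd3e among them, stood above the 40th percentile of all probe sets on every array, and 3 of the 6 were called lower in CBS-KO cells, where called means a limma adjusted p under 0.05 and 4.47% of all tested probe sets were called lower. Markers of other cells were called higher in CBS-KO cells for 13 of 14 neutrophil genes, 12 of 14 monocyte and macrophage genes, 10 of 11 erythroid genes and 1 of 7 B cell genes, where 5.09% of all tested probe sets were.

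The 9 genes fell into 4 that were higher and 5 that were lower in CBS-KO cells, and 9 of the 10 probe sets kept CBS-KO and WT arrays fully apart. Since this separation is what brought the genes together, it is given as a description only. Groups did not overlap for 36.7% of the 20856 tested probe sets, with 15.0% higher and 21.7% lower in CBS-KO cells. The exception was the second Als2cl probe set, 10597266, which was dim on all arrays, with log2 values of 6.02, 6.07 and 5.94 in CBS-KO cells and 6.42, 6.16 and 6.01 in WT cells. It did not pass the filter on dim probe sets, which the other 9 passed.

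**Figure D1:**
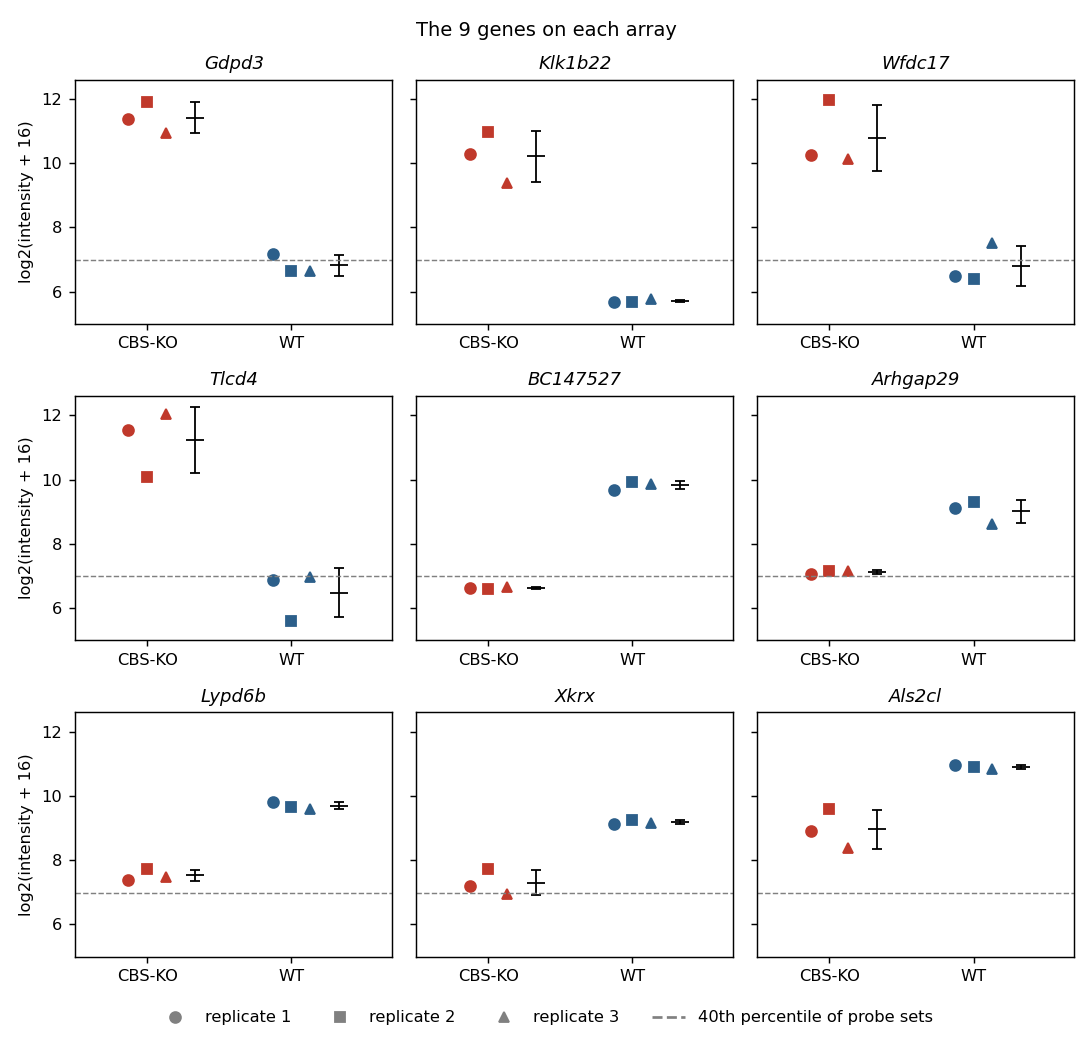
Log2(intensity + 16) of the 9 genes on each array, with CBS-KO left of WT in every panel; symbols mark the replicate number, black bars the mean and SD of 3 arrays, and the dashed line the 40th percentile of all probe sets (6.987). Klk1b22, Tlcd4 and BC147527 have one group wholly above and the other wholly below the line, and BC147527 differs by only 0.05 between its CBS-KO arrays.

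An on/off pattern was defined in a strict way, to describe the shape of the differences. Every array of one group had to lie below the 40th percentile of the probe set means (a log2 value of 6.987, an intensity of 110.8), every array of the other group above it, and the groups had to be at least 1 log2 unit apart. Over all 34760 probe sets, 54 (0.155%) met this rule, 48 (0.138%) higher and 6 (0.0173%) lower in CBS-KO cells. Of the 9 genes, 3 met it, namely Klk1b22, Tlcd4 and BC147527. The other 6 were bright in one group and dimmer, but not uniformly below the line, in the other. The rule uses the values by which the 9 genes were chosen, so this split is a description that depends on where the line is set. Tlcd4 met the rule with WT 3 at 6.97, close to the line. Gdpd3, with the widest gap of the 9 (3.76), did not meet it because WT 1 stood at 7.18. Among probe sets that straddled the line, those just inside the limit had gaps of 1.008, 1.012 and 1.021 log2 units and those just outside had 0.990, 0.981 and 0.969. The count of 54 became 122 when WT 3 was left out, 131 when CBS-KO 2 was and 90 when CBS-KO 3 was. The level was kept from all 6 arrays, so leaving an array out could only add probe sets. Klk1b22, Tlcd4 and BC147527 thus had to stay inside the rule, and their staying is no check on it. Gdpd3 joined them without WT 1 and Wfdc17 without WT 3.

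**Figure D2:**
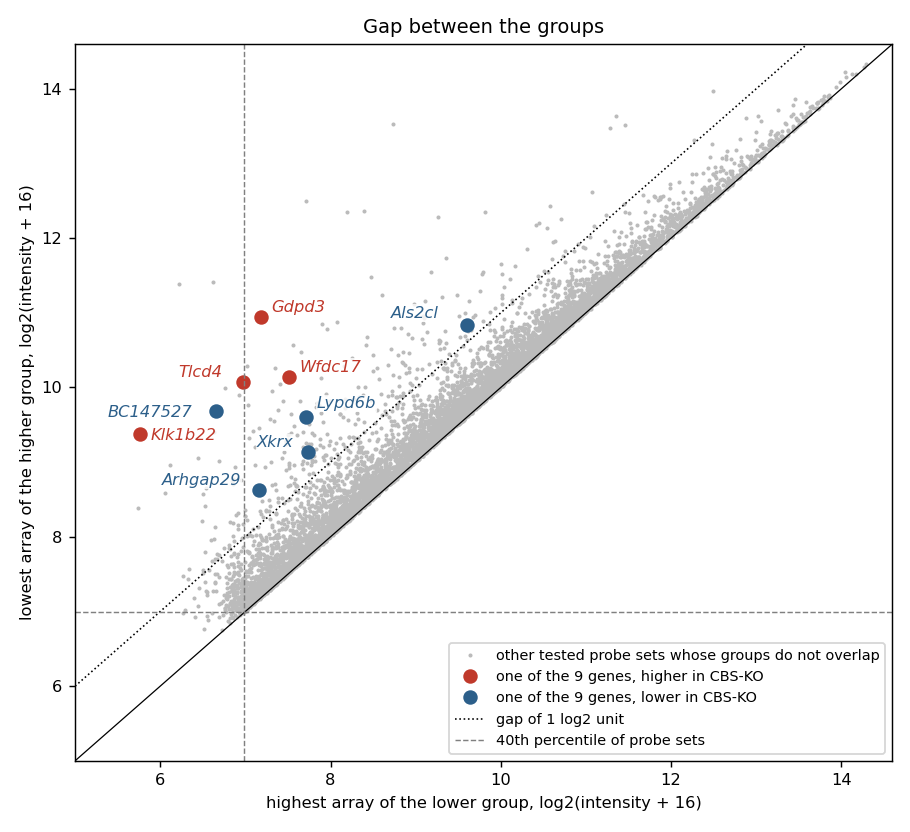
Each point is a tested probe set whose groups do not overlap, placed by the highest array of its lower group (horizontal) and the lowest array of its higher group (vertical), both as log2(intensity + 16). Points above the dotted line have a gap of at least 1 log2 unit; of the 9 genes, Gdpd3 has the widest gap (3.76) and Als2cl the narrowest (1.25).

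The upstream sequences of the 3 genes that met the on/off rule are shown as their nearest regulatory sequence. The arrays do not read these sequences. Each is the reference sequence of the 250 bases before the annotated start, from RefSeq on GRCm38.p6, 5′ to 3′ on the gene's own strand, and 8 of the 9 genes had an entry. Klk1b22 lies at chr7:44112423-44112672 on the plus strand, Tlcd4 at chr3:121263341-121263590 on the minus strand (the first of the starts listed for it) and BC147527 at chr13:120300142-120300391 on the plus strand. Capitals mark matches to GAGGAA, the core that PU.1 and related ETS factors bind.
Klk1b22: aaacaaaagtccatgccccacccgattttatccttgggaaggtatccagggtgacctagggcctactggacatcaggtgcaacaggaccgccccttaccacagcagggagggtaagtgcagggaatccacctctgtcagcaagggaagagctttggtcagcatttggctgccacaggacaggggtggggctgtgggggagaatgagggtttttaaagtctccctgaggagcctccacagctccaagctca
Tlcd4: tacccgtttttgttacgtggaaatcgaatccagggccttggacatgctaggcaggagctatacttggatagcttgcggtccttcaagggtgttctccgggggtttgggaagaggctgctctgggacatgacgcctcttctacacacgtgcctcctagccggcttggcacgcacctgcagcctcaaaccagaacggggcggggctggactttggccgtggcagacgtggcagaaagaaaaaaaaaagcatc
BC147527: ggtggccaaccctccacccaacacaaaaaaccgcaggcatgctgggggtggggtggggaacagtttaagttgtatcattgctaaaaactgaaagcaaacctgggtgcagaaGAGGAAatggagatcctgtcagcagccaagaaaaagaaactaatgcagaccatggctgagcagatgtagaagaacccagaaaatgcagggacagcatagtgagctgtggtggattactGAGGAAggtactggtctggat

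Matches to 3 motifs were looked for on both strands: AGATAA, bound by the GATA factors of red cell precursors, GAGGAA, and TATAAA, the TATA box. BC147527 held GAGGAA at 2 places, 139 and 21 bases before the start. Klk1b22 and Tlcd4 held none of the 3 motifs in these windows. Among the other genes, Wfdc17, Arhgap29 and Als2cl held 1 match to the ETS core each, Xkrx held 2 GATA matches, and Gdpd3 held none. Of 32851 RefSeq promoters of this length, 9.99% held the GATA motif, 23.3% the ETS core and 12.4% the TATA box, and a match describes letters only.

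Gdpd3, an enzyme that cleaves lysophospholipids, was among the 4 genes that were higher in CBS-KO cells. Its intensity was 2675, 3854 and 1944 in CBS-KO 1 to 3, against 129, 83.2 and 83.5 in WT 1 to 3. Every CBS-KO array thus stood far above every WT array, and WT 1 just above the 40th percentile kept the gene from the on/off rule. The log2 level was 11.42 ± 0.49 in CBS-KO and 6.82 ± 0.31 in WT cells (SD, n = 3 each), a difference of 4.60 (SE 0.28).

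Klk1b22 encodes a secreted serine protease of the glandular kallikrein cluster, which is expanded in the mouse and best known from salivary gland. The intensity was 1234, 1993 and 645 in CBS-KO cells and 35.6, 35.2 and 38.2 in WT cells. Signal in WT cells was low and nearly equal on all arrays, while CBS-KO arrays spread widely. On the log2 scale the levels were 10.21 ± 0.81 in CBS-KO and 5.71 ± 0.04 in WT cells (SD, n = 3 each), a difference of 4.5 (SE 0.37). Kallikreins of this cluster are near-identical copies, so a probe set named for one can read another, and which copies this one reads was not tested. The probe sets of 8 neighbouring copies had log2 values of at most 7.13 on all arrays.

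Wfdc17, a small secreted protein with a whey acidic protein domain that is known from activated macrophages, was higher as well. Its intensity was 1212, 3975 and 1115 in CBS-KO cells and 74.4, 68.1 and 166 in WT cells. CBS-KO 2 stood apart on the high side and WT 3 was the highest of its group. The difference was 3.99 (SE 0.54), with levels of 10.79 ± 1.02 in CBS-KO and 6.80 ± 0.61 in WT cells (SD, n = 3 each).

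Tlcd4, a membrane protein with a TLC domain formerly called Tmem56, had intensities of 2992, 1057 and 4224 in CBS-KO cells and 100.3, 32.3 and 109 in WT cells. Here CBS-KO 2 was the lowest CBS-KO array, where it was the highest for Gdpd3, Klk1b22 and Wfdc17, and WT 2 was the lowest WT array. Log2 levels were 11.22 ± 1.03 in CBS-KO and 6.47 ± 0.76 in WT cells (SD, n = 3 each), a difference of 4.75 (SE 0.58), the largest of the 9.

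BC147527, a gene named after its cDNA clone, was the one gene lower in CBS-KO cells that met the on/off rule. The intensity was 82.2, 81.0 and 84.4 in CBS-KO cells, against 803, 951.5 and 915 in WT cells. CBS-KO arrays were nearly identical to each other, with a log2 range of 0.05, and WT arrays had a range of 0.24. The levels were 6.62 ± 0.03 in CBS-KO and 9.82 ± 0.13 in WT cells (SD, n = 3 each), a difference of -3.20 (SE 0.12). Among the 3030 probe sets within 0.2 log2 units of its CBS-KO mean, the median SD over the CBS-KO arrays was 0.14, and 5.54% had a smaller SD than BC147527. The gene was chosen from these same values, so this share is a description only.

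Arhgap29 encodes a GTPase-activating protein known from endothelial cells. Its intensity was 118, 127 and 126 in CBS-KO cells and 539, 612 and 378 in WT cells. The CBS-KO arrays again lay close together (SD 0.05 on the log2 scale), just above the 40th percentile, and WT 3 was the lowest WT array. The difference was -1.89 (SE 0.19). Of the endothelial markers, Pecam1 stood at -0.77 (limma adjusted p = 0.0526) and Cdh5 at 0.08 (adjusted p = 0.603), and Kdr and Tek were too dim to test. Over endothelial, stromal and epithelial markers 0 of 8 tested genes were called, a number too small to set against the 9.57% called over all tested probe sets.

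Lypd6b, a membrane-anchored protein of the LY6/PLAUR type that modulates nicotinic receptors, had intensities of 152, 193 and 161 in CBS-KO cells and 891, 798 and 760.5 in WT cells. The groups did not overlap, and all CBS-KO arrays stayed above the line set for off. Levels were 7.53 ± 0.17 in CBS-KO and 9.70 ± 0.11 in WT cells (SD, n = 3 each), a difference of -2.17 (SE 0.14).

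Xkrx, an X-linked relative of the red cell membrane protein XK, had intensities of 132, 197 and 108 in CBS-KO cells and 543, 592 and 557 in WT cells. The lowest value was that of CBS-KO 3, the female array, so the difference between the groups was present within the female arrays, at -2.22 from the WT mean, as well as in the mean over both sexes (-1.88, SE 0.21). On CBS-KO 3 alone against WT, Xkrx met the on/off rule too, beside Klk1b22, Tlcd4 and BC147527, which had to meet it there.

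Als2cl, a protein that binds the endosomal GTPase Rab5, was the least switch-like. Probe set 10589654 had intensities of 463, 759.5 and 319.6 in CBS-KO cells and 1958, 1878 and 1823 in WT cells. All CBS-KO arrays were lower than all WT arrays, yet each stayed well above the line set for off. The difference was -1.93 (SE 0.29), with an SD of 0.61 among CBS-KO arrays and 0.05 among WT arrays.

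The CBS-KO arrays did not vary alike for the 9 genes. Relative to the WT mean, Gdpd3 stood at 4.58, 5.10 and 4.12 in CBS-KO 1 to 3, Klk1b22 at 4.58, 5.26 and 3.66, and Wfdc17 at 3.46, 5.16 and 3.34, each highest in CBS-KO 2 and lowest in CBS-KO 3. Over the same arrays the mean of the 14 monocyte and macrophage markers stood at 1.71, 2.32 and 1.80 and that of the 14 neutrophil markers at 3.69, 3.33 and 3.31. Tlcd4 had the opposite order, at 5.08, 3.59 and 5.58, and the mean of the 11 erythroid markers ran 3.36, 2.32 and 3.68. All measured genes of the 3 lists were above the 40th percentile on every CBS-KO array, whereas WT arrays had 5 to 10 neutrophil, 12 or 13 monocyte and 8 to 11 erythroid genes above it. The part of these cell types in the 4 differences was not tested.

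Among the genes that were lower, Als2cl stood at -1.99, -1.29 and -2.50 and Xkrx at -1.97, -1.45 and -2.22 in CBS-KO 1 to 3. The mean of the 6 CD4 T cell markers had the same order, at -0.68, -0.39 and -1.05, and so had the B cell list, at -0.16, 0.97 and -0.77, and the CD8 T cell list, at -0.37, 0.97 and -0.44. BC147527 stood at -3.20, -3.22 and -3.17, Arhgap29 at -1.95, -1.85 and -1.86 and Lypd6b at -2.30, -1.99 and -2.23. Their spread across the CBS-KO arrays was 0.05, 0.10 and 0.32 log2 units, against 0.77 for Xkrx and 1.21 for Als2cl. For Arhgap29, 10.1% of the 2722 probe sets within 0.2 log2 units of its CBS-KO mean had a smaller SD over the CBS-KO arrays (median 0.16). For Wfdc17 and Tlcd4 the shares were 99.8% and 99.9%. They were 97.0% for Klk1b22, 90.8% for Gdpd3, 88.9% for Als2cl, 88.0% for Xkrx and 41.0% for Lypd6b. All of these shares use the values by which the genes were chosen, and they are a description only.

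**Figure D3:**
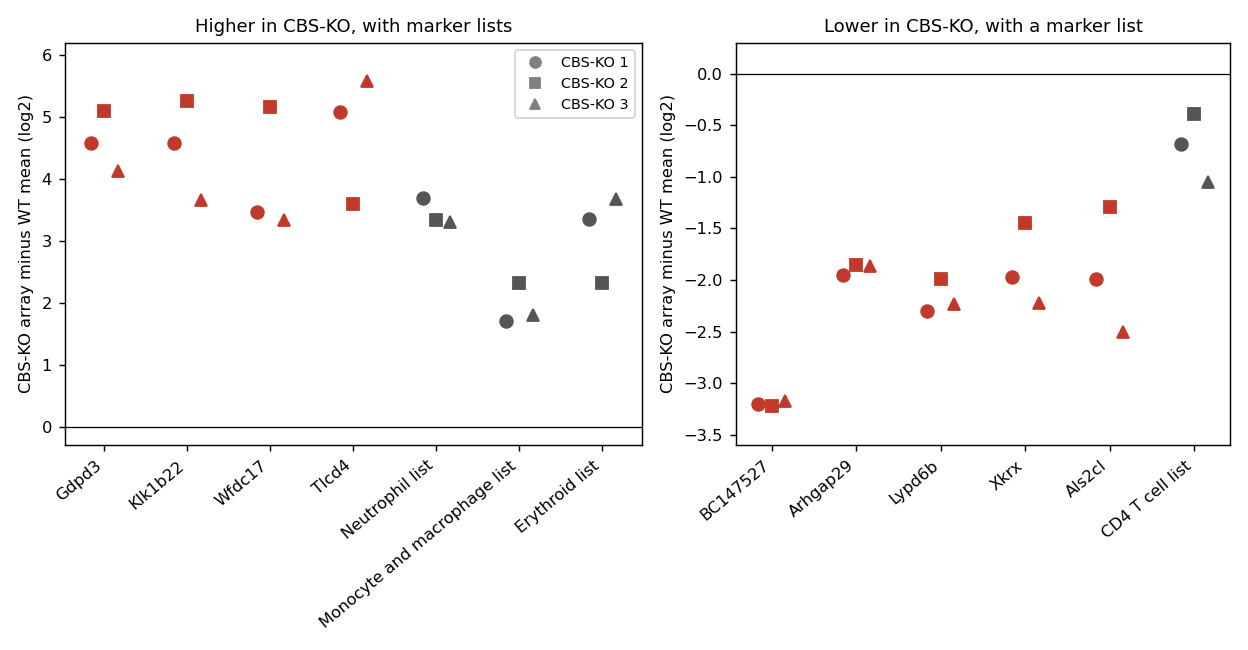
Log2 distance of each CBS-KO array from the WT mean for the 4 higher genes with 3 marker lists (left) and for the 5 lower genes with the CD4 T cell markers (right); red symbols are genes, grey symbols means over a list, and shapes mark the array. Tlcd4 and the erythroid list are lowest in CBS-KO 2, and the symbols of BC147527 nearly coincide at -3.20, -3.22 and -3.17.

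The genes most like each of the 9 were found by the Euclidean distance between profiles over the 6 arrays, each centred on its own mean, among 12767 other tested genes. This measure follows the size of the difference between the groups first. For Gdpd3 (distances 1.11 and 1.15) and Klk1b22 (0.92 and 1.08) they were S100a8 and S100a9, the calprotectin subunits of neutrophils. Wfdc17 was closest to Cxcr2 (0.88), a neutrophil chemokine receptor, and Retnlg (1.05). Genes of the neutrophil list did not share one order over the CBS-KO arrays. S100a8, S100a9, Cxcr2, Mmp8 and Mmp9 were highest in CBS-KO 2, whereas Ngp, Ltf, Camp, Mpo, Elane, Ctsg and Prtn3 were lowest there. Lcn2 and Ly6g were highest in CBS-KO 1 and lowest in CBS-KO 3. Tlcd4 was closest to Rhag (0.72), the Rh-associated glycoprotein of the red cell membrane, and Cldn13 (0.77).

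Of the 5 genes that were lower, BC147527 was closest to Trim30d (0.71) and Gm1966 (0.86), both on chromosome 7. Trim30d had log2 values of 6.09, 6.64 and 6.02 in CBS-KO cells and 9.83, 9.70 and 9.40 in WT cells, and it met the on/off rule itself. Arhgap29 was closest to Gm4759 (0.35) and A530021J07Rik (0.49), also on chromosome 7, and Lypd6b to Ifi214 and Gm4759 (0.44 each). For Xkrx they were Ifi206 (0.30), a PYHIN gene as Ifi214 is, and AI506816 (0.42), and for Als2cl AI506816 (0.30) and A630023P12Rik (0.37).

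Whether place in the genome played a part in choosing the 9 genes is not stated. They sat on 7 chromosomes, with 2 on chromosome 3 (Tlcd4 and Arhgap29) and 2 on chromosome 7 (Klk1b22 and Gdpd3). There was 1 each on chromosomes 2, 9, 11, 13 and X, and 0 on chromosome 17, which carries Cbs. These counts, the 0 among them, may follow from how the genes were chosen. Shares of all genes by chromosome were not set beside them, so nothing is read from the counts. Tlcd4 and Arhgap29 had 7 measured genes between them, and they differed in opposite directions. None of those 7 was called: Alg14 differed by 0.24 (limma adjusted p = 0.612), Cnn3 by -0.24 (0.401) and Abcd3 by 0.25 (0.452), and Slc44a3, A730020M07Rik, 4930432M17Rik and F3 were too dim to test.

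To see whether whole stretches moved with the genes, up to 5 nearest measured genes on each side were tested in the same model. BC147527 had 5 on one side and 1 on the other. Of 83 such genes 45 were bright enough to test, and 6 were higher and 1 was lower in CBS-KO cells, where 5.09% of all tested probe sets were higher and 4.47% lower (9.57% in all). Their median difference was 0.03, beside -0.05 over all tested probe sets. Wfdc17 had 3 called neighbours, the chemokine genes Ccl6 (2.74, SE 0.29, limma adjusted p = 0.00836), Ccl9 (2.45, SE 0.25, 0.00763) and Ccl3 (1.88, SE 0.33, 0.0246), all on one side of it. On its other side Wfdc18, of the same protein family, stayed dim at log2 values of 5.64 to 5.78 in CBS-KO and 5.59 to 5.71 in WT cells.

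The gene next to Als2cl, Tmie, a component of the hair cell transduction channel in the inner ear, was lower with it. Tmie had log2 values of 7.94, 8.30 and 7.95 in CBS-KO cells and 9.71, 9.85 and 9.08 in WT cells (difference -1.48, SE 0.23, limma adjusted p = 0.0188). All CBS-KO arrays were below all WT arrays. Tdgf1, on the other side of Als2cl, differed by -0.32 (adjusted p = 0.189), and further along lay Ltf, the neutrophil granule protein lactoferrin, which was higher by 3.82 (SE 0.39, adjusted p = 0.00771).

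Arhgap29 had the called neighbour Gclm, the modifier subunit of the enzyme that starts glutathione synthesis (1.48, SE 0.29, limma adjusted p = 0.0325), and Lypd6b had Rnd3, a small GTP-binding protein (1.39, SE 0.18, 0.0138), both in the direction opposite to that of Arhgap29 and Lypd6b. Around Gdpd3 there were 9 tested neighbours with differences of -0.69 to 0.35, of which 0 were called, and around BC147527 3 tested ones, Hmgcs1, Nim1k and Zfp131, with differences of -0.15, 0.03 and -0.37 and 0 calls. Tcstv3 and AF067061, the genes closest to BC147527, were dim in both groups. Klk1b22 had 0 of 2, Tlcd4 0 of 4 and Xkrx 0 of 4 tested neighbours called. The 7 called neighbours became 1 when WT 1 was left out, 0 for WT 2, 3 for CBS-KO 1 and 18 for CBS-KO 2. Tmie, Rnd3, Ccl3 and Gclm each lost their call when WT 1, WT 2 or CBS-KO 1 was left out, and Ccl3 and Gclm also when WT 3 was. Ccl6 and Ltf lost theirs when WT 1 or WT 2 was left out, and Ccl9 for WT 2. Gclm also lost its call with no filter, and Ccl3 in the female arrays alone.

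**Figure D4:**
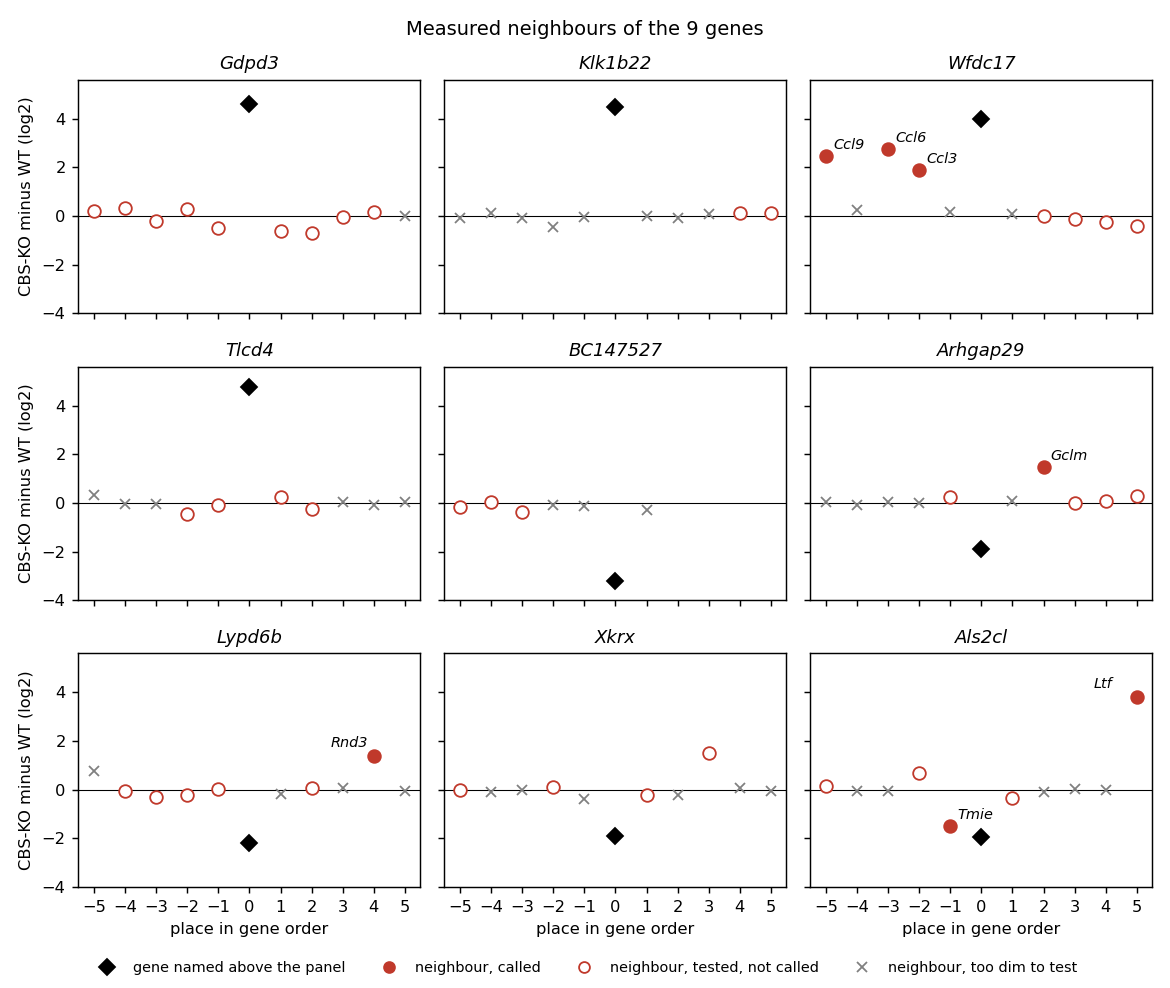
Log2 difference (CBS-KO minus WT) of each of the 9 genes (black diamond at 0) and of the measured genes up to 5 places before and after it in gene order; filled circles are called, open circles tested and not called, crosses too dim to test. Called neighbours stand beside Wfdc17, Arhgap29, Lypd6b and Als2cl, and only 45 of the 83 neighbours were bright enough to test.

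Relatives of the 9 genes were taken by protein family. Of 99 measured relatives 55 were tested, and 7 were higher and 1 was lower, where 5.09% of all tested probe sets were called higher and 4.47% lower. Their median difference was -0.03, beside -0.05 over all tested probe sets. In the family of Gdpd3, 1 of 3 tested genes was higher, Gdpd1, which read 9.85, 8.71 and 9.74 in CBS-KO cells and 6.70, 6.60 and 6.86 in WT cells (2.72, SE 0.30, limma adjusted p = 0.00937). Xk, the red cell membrane partner of the Kell antigen, was higher (2.21, SE 0.41, 0.0277), the opposite direction from Xkrx, among 5 tested relatives. Tlcd1 was higher (1.29, SE 0.30, 0.0462) among 5 TLC domain genes. Among 6 tested kallikreins, 6 WAP domain genes and 5 LY6/PLAUR genes 0 were called, with medians of -0.08, -0.02 and -0.02. The 8 calls over all relatives became 0 when WT 1 or WT 2 was left out, 3 for WT 3, 1 for CBS-KO 1 and 24 for CBS-KO 2. Gdpd1 lost its call when WT 1 or WT 2 was left out, Xk for any WT array or CBS-KO 1, and Tlcd1 for those and CBS-KO 3. Xk and Tlcd1 also lost theirs with no filter on dim probe sets, and Tlcd1 with a common array median or robust eBayes.

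A list of genes known to differ between inbred mouse strains in sequence, copy number or expression was set beside the 9. Of 20 measured genes 15 were tested, and 6 were called higher and 0 lower in CBS-KO cells, where 5.09% of all tested probe sets were called higher and 4.47% lower. The median difference was 0.49, beside -0.05 over all tested probe sets. The 4 of smallest p were Gbp2b, an interferon-induced GTPase (1.45, SE 0.16, limma adjusted p = 0.00941), Alad, an enzyme of haem synthesis with a copy number that varies among strains (1.95, SE 0.27, 0.0146), Glo1, a glyoxalase with such a variant too (1.38, SE 0.20, 0.0161), and Cd244a, a receptor of NK and myeloid cells (1.21, SE 0.26, 0.0401). Alad stood at 12.82, 12.16 and 13.03 in CBS-KO cells and 10.70, 10.36 and 11.09 in WT cells, and Glo1 at 11.78, 11.25 and 12.05 in CBS-KO and 10.30, 10.30 and 10.33 in WT cells. In both, CBS-KO 3 was highest and CBS-KO 2 lowest, as for Tlcd4 and the erythroid markers. Glo1 lies on chromosome 17, which also carries Cbs. What lies behind the differences of Alad and Glo1 was not tested.

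A pair of genes in this list, picked out after their values were seen, are known to be silent or nearly so in C57BL/6 mice and active in some other strains. Ifi202b read 5.06, 5.06 and 4.96 in CBS-KO cells and 5.06, 4.95 and 5.06 in WT cells. H2-Ea read 5.78, 5.71 and 5.71 in CBS-KO and 5.72, 5.74 and 5.74 in WT cells. Both were far below the 40th percentile on all arrays, and neither separated the groups. Whether these cells would express either gene from an active allele was not tested, so the dim readings do not tell which allele was carried. The 6 called strain genes became 0 when WT 1 or CBS-KO 1 was left out, 1 for WT 2, 2 for WT 3 and 9 for CBS-KO 2 (7 higher, 2 lower). Gbp2b lost its call when WT 1 or CBS-KO 1 was left out, Alad also for WT 2, and Cd244a and Glo1 for any WT array or CBS-KO 1. Cd244a also lost its call with no filter, with the replicate number as a block, and with sex as a term or in the female arrays alone, where its difference was 0.62 against 1.21 in the fit of all arrays without these terms. Whether the mice of the groups differed in background was not tested.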

How the data were processed

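The deposited table holds 1 linear intensity per probe set and array, made by the authors, and no source used here states how background, normalization or probe summary were handled. The labels' protocols record Qiagen extraction of total RNA and biotin-labelled cRNA on Affymetrix arrays. Intensities were taken as log2(intensity + 16). Of 34760 probe sets, 21640 name 1 gene, 1321 several and 11799 none. The 20856 with a mean above the 40th percentile were tested with limma (version 3.58.1, under R 4.3.3, trended eBayes, two-sided, all 6 arrays, Benjamini-Hochberg over all tested probe sets, adjusted p under 0.05), and "called" means past that threshold. A gene was read by its brightest tested probe set. The fit was tested on simulated data. The 9 genes and all lists were chosen with earlier results of these data known, and the motifs after the values were seen, so the 9 genes get no test of their own. Text names each gene of the set, called neighbours, at most 4 called relatives or strain genes per list, and the 2 genes most like each; other names were added after their values were seen. Figures used matplotlib 3.10.9. Gene order came from RefSeq on GRCm38.p6, where 19850 of 19937 named genes were placed, for names and neighbours only. Alternatives were other normalizations, filters, offsets and variance models, the replicate number as a block, each array left out, and, added later, sex as a term and female arrays alone. With 3 arrays per group, their number limits precision, and where replicates share a source p-values measure only the spread between these arrays. Some relatives counted in the family totals are not reported here by name.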

Additional observations from a re-analysis of the deposited data

How the results depend on the processing

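No value of the 9 genes changed sign under any of 17 alternatives, and 14 of 151 values moved by more than the spread between replicates. The groups of the 9 tested probe sets do not overlap. Leaving arrays out or changing the offset, filter or variance model thus could not change a sign. Klk1b22, Tlcd4 and BC147527 met the on/off rule under each alternative in which it was recomputed, which was fixed in advance where arrays were left out. Gdpd3 and Arhgap29 joined them with the level at the 50th percentile. The 1995 probe sets called in all (1062 higher, 933 lower) became 1126 with no filter, 4976 with sex as a model term, 6708 with the female arrays alone, and 73 to 6427 with 1 array left out (93 for WT 1, 73 for WT 2, 672 for WT 3, 166 for CBS-KO 1, 6427 for CBS-KO 2). The 7 called neighbours became 15 with 10 genes on each side (of 91 tested), 15 with sex as a term, 19 in female arrays, and 0 to 18 with 1 array left out. The 8 called relatives became 4 with no filter, 5 with the filter at the 60th percentile, 18 with sex as a term, 22 in female arrays, and 0 to 24 with 1 array left out. The 6 called strain genes became 3 with no filter, 8 with a common array median (7 higher, 1 lower) and 0 to 9 with 1 array left out. The balance of directions moved too. Without CBS-KO 2 the calls were 11 higher and 7 lower for neighbours, 12 and 12 for relatives, and 7 and 2 for strain genes. The 54 on/off probe sets became 32 with an offset of 64, 94 with the level at the 50th percentile, 16 with a gap of 2 log2 units, 341 in female arrays (CBS-KO 3 against WT), and 59 to 131 with 1 array left out. With sex as a term and in female arrays the estimate rests on CBS-KO 3. The cause of these moves was not tested, beyond the number of genes tested or arrays used that each alternative sets. The replicate numbers were not taken to pair the arrays: deviations of same-numbered arrays correlated at 0.063, 0.158 and 0.108, although each of the 6 arrays correlated best with its own number. With the replicate number as a block 2093 probe sets, 8 neighbours, 10 relatives and 3 strain genes were called. The dim side of each of the 9 differences rests on a background treatment that the sources do not give.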

Other observations

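The on/off rule found 6 probe sets lower in CBS-KO cells, 4 of which name 1 gene. These were Rps13, Trim12a and Trim30d on chromosome 7 and BC147527 on chromosome 13. They were singled out after their values were seen, and the share of all probe sets on chromosome 7 was not set beside them. Trim12a, a tripartite motif gene, had log2 values of 6.22, 6.34 and 6.62 in CBS-KO cells and 11.78, 11.81 and 11.41 in WT cells. The Rps13 probe set 10565434 stood at 5.53, 5.25 and 6.22 in CBS-KO cells and 11.52, 12.04 and 11.38 in WT cells, a difference of -5.98. The other Rps13 probe sets, 10567163 and 10573693, did not follow it, with differences of -0.19 and -0.14 and log2 values of at least 10.23 on all arrays. Rps13 encodes a protein of the small ribosomal subunit, and what sets its probe sets apart was not tested. The 48 on/off probe sets that name 1 gene, in both directions, lay on most chromosomes, with at most 6 on any (chromosomes 6 and 7). Of them, 5 belong to the neutrophil or monocyte marker lists (S100a8, Ly6g, Mmp8, Cxcr2 and Cd14). Shares of all probe sets by chromosome or list were not set beside these counts, so no excess is read from them.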
